A study of Mus musculus with 2 samples.

Results

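Tmem119, Siglech, Fcrls, Olfml3, Sparc, Selplg, Gpr34, Ltc4s and Golm1 are 9 genes for surface, secreted and enzyme proteins by which microglia are told from other brain macrophages. They were taken by symbol, 9 rows of the 27998 genes in the deposited matrices, and all 9 had UMIs in both libraries. The measurement was 10x Genomics single-cell RNA-seq of CD11b+/CD45+ cells sorted from adult C57BL/6J mouse brain. The Repop D5 library came from 6 pooled mice given PLX5622, an inhibitor of the receptor CSF1R that removes microglia, for 14 days, with a return to control diet over the following 5 days. The CD library came from 4 pooled mice given control diet for 19 days. With 1 library of pooled mice per group there is no replicate, so no test between the groups is given, and all intervals cover counting error only. No library from the end of the PLX5622 phase was analysed here, so each level is set against CD and the course up to day 5 was not measured.

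Microglia are the resident macrophages of the brain and depend on signals through CSF1R and TGF-beta. A set of genes is expressed in adult microglia far above other macrophages, and such genes are used to mark the mature, homeostatic state. When microglia are removed with a CSF1R inhibitor and the drug is withdrawn, the brain fills again with dividing cells, which regain the mature profile over time.

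The Repop D5 library held 585 barcodes and 11300334 UMIs, with a median of 15772 UMIs per barcode, and the CD library held 609 barcodes and 6055886 UMIs, with a median of 5982. Those barcode numbers equal the cell numbers the study states. Cells with at least 500 genes and under 10% mitochondrial UMIs were retained, 553 in Repop D5 and 609 in CD. Clustering without the 9 genes gave 13 clusters. Of these, 4 carried the leading genes of another class and were called border macrophage-like (109 cells, all CD), monocyte-like (48 Repop D5 and 26 CD cells), neutrophil-like (7 Repop D5 and 42 CD cells) and endothelial-like (2 Repop D5 and 2 CD cells). The cells outside these 4 clusters, called the remaining cells, numbered 496 in Repop D5 and 430 in CD, and their median depth was 16301 UMIs in Repop D5 and 5026 UMIs in CD. The 4 clusters held 7.87% of UMIs in Repop D5 and 47.7% in CD, so values of the 9 genes are given over all retained cells and again over the remaining cells. Levels are UMIs summed over a library's cells and scaled to counts per 1000000 UMIs of that library (CPM).

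Promoters were read from RefSeq, GRCm38.p6, as 250 bases before to 50 bases after the gene start, and 6 of the 9 genes matched. Those of Tmem119, Selplg and Gpr34 are not shown. The letters AGGAAGT, a core that PU.1 and other ETS factors can bind, were searched on both strands because PU.1 is the lineage factor of microglia. They were in the windows of Fcrls and Ltc4s, 2 of 6, and in 9.35% of all 32851 promoters of this length. Fcrls and Ltc4s stood side by side near the bottom of the order of Repop D5 to CD ratios. Olfml3, whose window holds no such run, stood at the top of that order. The windows of Siglech, Sparc and Golm1 hold no such run either, and these genes stood at 49.9%, 57.5% and 73.8% of CD over all retained cells. The lowest gene, Gpr34, had no matched promoter. A link between the run and the ratios was not tested. The windows of Fcrls, Ltc4s and Olfml3, chosen by their place in that order, are shown. All 3 lie on the minus strand, at chr3:87263475-87263774 for Fcrls, chr11:50238483-50238782 for Ltc4s and chr3:103737952-103738251 for Olfml3. They run 5′ to 3′ along the gene, and capitals mark AGGAAGT or its reverse complement. The RefSeq starts of Fcrls and Ltc4s lie inside the GENCODE gene positions given below, and so does the marked run of Fcrls. The whole Sparc window, at chr11:55420031-55420330 on the minus strand, lies inside the GENCODE position of Sparc. The GENCODE start of Sparc, at 55423183, is thus outside the window and was not searched.

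Fcrls: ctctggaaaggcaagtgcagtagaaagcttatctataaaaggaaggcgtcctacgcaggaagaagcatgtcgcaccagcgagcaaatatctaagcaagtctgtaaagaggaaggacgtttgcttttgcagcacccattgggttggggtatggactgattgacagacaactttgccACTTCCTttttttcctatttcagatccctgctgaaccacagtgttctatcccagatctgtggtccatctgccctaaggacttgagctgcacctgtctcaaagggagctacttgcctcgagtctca

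Ltc4s: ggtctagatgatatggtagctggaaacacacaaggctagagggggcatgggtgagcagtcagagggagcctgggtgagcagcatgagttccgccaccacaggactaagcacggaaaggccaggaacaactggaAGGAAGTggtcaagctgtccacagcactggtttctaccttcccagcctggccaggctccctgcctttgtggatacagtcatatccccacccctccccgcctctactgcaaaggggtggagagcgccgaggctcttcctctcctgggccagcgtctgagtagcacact

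Olfml3: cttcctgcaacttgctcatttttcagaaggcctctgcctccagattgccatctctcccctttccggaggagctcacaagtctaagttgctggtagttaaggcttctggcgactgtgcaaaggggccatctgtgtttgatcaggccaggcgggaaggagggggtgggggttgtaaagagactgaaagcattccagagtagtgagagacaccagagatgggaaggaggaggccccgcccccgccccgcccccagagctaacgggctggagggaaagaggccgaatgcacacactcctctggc

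Among the other motifs searched on both strands, the short SMAD element CAGAC was in 5 of the 6 windows, all but Olfml3, and in 49.6% of all promoters. The SMAD palindrome GTCTAGAC, the IRF motif and the MEF2 motif were in 0 of the 6, and in 0.213%, 3.44% and 3.69% of all promoters. No 2 motif matches overlapped. These matches are letters in a window and say nothing of binding.

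At day 5 the 9 genes stood at very unequal shares of their CD level. Over all retained cells Gpr34 stood at 20.5% of CD, Ltc4s at 24.0%, Fcrls at 24.7%, Selplg at 38.9%, Tmem119 at 40.7%, Siglech at 49.9%, Sparc at 57.5%, Golm1 at 73.8% and Olfml3 at 110%. With a gene called lower or higher where the levels differed by 1.5-fold or more, 7 of the 9 were lower in Repop D5, 0 were higher, and Golm1 and Olfml3 were neither. Of the 8463 genes with at least 10 CPM in 1 library, 42.1% were lower in Repop D5 and 16.8% were higher by the same rule. The median of the 9 log2 ratios was -1.30, beside -0.38 over all genes tested. Over the remaining cells again 7 were lower and 0 higher, with 40.5% of 8429 genes lower and 17.6% higher. In those cells the median log2 ratio was -1.48 for the 9 genes and -0.36 for all genes tested. The split depends on the scaling: with trimmed mean of M values (TMM) in place of total UMIs, 5 of the 9 genes were lower over all retained cells and 1, Olfml3, was higher, beside 21.3% of all genes lower and 30.6% higher. With totals without mitochondrial and ribosomal protein genes 6 of the 9 were lower and 0 higher, beside 29.7% of all genes lower and 23.6% higher.

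**Figure D1:**
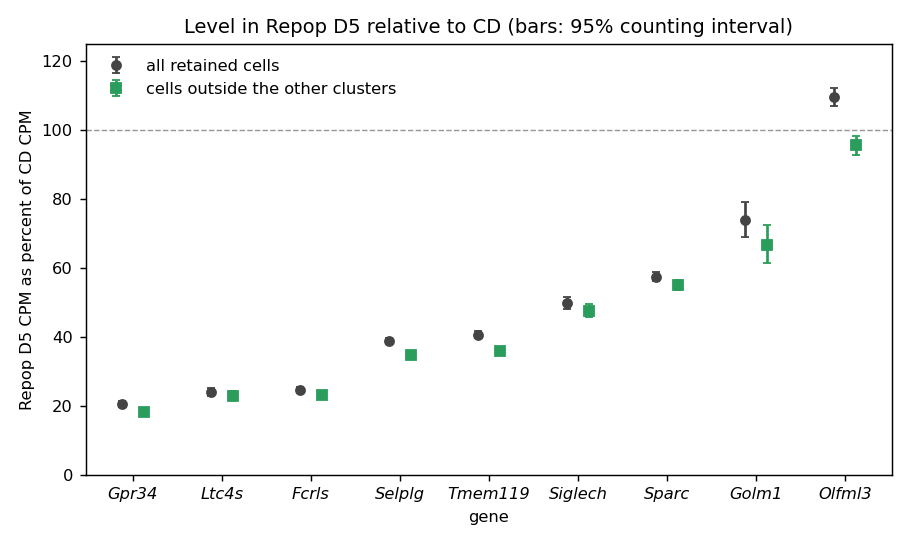
Level of each gene in Repop D5 as a percentage of its CD level, over all retained cells and over the remaining cells, with 95% counting intervals on a linear axis. Gpr34 sits lowest at 20.5% and 18.3%, and Olfml3 is nearest to the CD level at 110% and 95.6% with total-UMI scaling (150% over all retained cells with TMM).

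In that order of ratios, neighbours did not overlap in their counting intervals, except Ltc4s with Fcrls and Selplg with Tmem119. The same 2 pairs overlapped in the remaining cells. Among all 8463 genes tested, 3.08% had a lower ratio than Gpr34, 4.25% than Ltc4s and 4.62% than Fcrls, and 71.0% had a lower ratio than Olfml3. The 9 genes summed to 7310 CPM in Repop D5 and 15631 CPM in CD, or 46.8% of CD, and in the remaining cells to 7574 CPM in Repop D5 and 17686 CPM in CD, or 42.8%.

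Tmem119 codes for a transmembrane protein widely used as a microglia marker and lies on chromosome 5 from 113793729 to 113800516 on the minus strand (mm10, GENCODE M21). It had 822 CPM in Repop D5 (95% interval 806 to 840) and 2021 CPM in CD (1985 to 2057), 2.46-fold lower in Repop D5. Over the remaining cells it had 846 CPM in Repop D5 and 2359 CPM in CD, 35.9% of CD (34.8 to 37.0). The gap was thus wider once cells of the other clusters were left out. To compare single cells at equal depth, each remaining cell was thinned to 3000 UMIs, which left 496 Repop D5 cells and 421 CD cells, with 9 shallower CD cells left out. The median cell then held 2 Tmem119 UMIs in Repop D5 and 7 in CD. Only 1.81% of Repop D5 cells exceeded the CD median, against 41.3% of CD cells, while 89.3% of Repop D5 cells and 99.0% of CD cells had a UMI. A Tmem119 UMI was thus found in most Repop D5 cells, and few of them held as many as a typical CD cell.

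Selplg, on the same strand of chromosome 5 from 113818536 to 113832644, is the neighbour of Tmem119, 18019 bases away with 1 predicted gene between. It codes for PSGL-1, a mucin-like surface protein that selectins bind. It had 1258 CPM in Repop D5 (1237 to 1279) and 3236 CPM in CD (3191 to 3282), 2.57-fold lower in Repop D5. Its remaining-cell level was 1309 CPM in Repop D5 and 3776 CPM in CD, 34.7% of CD (33.8 to 35.5). These shares overlap those of Tmem119 in their intervals over both sets of cells. At 3000 UMIs per cell the median was 4 UMIs in Repop D5 and 11 in CD, and 6 of 496 Repop D5 cells (1.21%) were above the CD median, against 47.3% of CD cells. Before thinning, Selplg was seen in 100% of remaining cells of Repop D5 and of CD.

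The 3 receptors among the members stood at different shares of CD. Gpr34, a G protein-coupled receptor for lysophosphatidylserine, lies on chromosome X from 13632089 to 13640858. It was furthest below CD, with 321 CPM in Repop D5 (311 to 332) and 1569 CPM in CD (1538 to 1601), 4.89-fold lower in Repop D5. Over the remaining cells it had 330 CPM in Repop D5 and 1803 CPM in CD, 18.3% of CD. In cells thinned to 3000 UMIs, 60.7% of Repop D5 cells (56.2 to 65.0) and 98.3% of CD cells (96.6 to 99.3) had a Gpr34 UMI. The median was 1 UMI in Repop D5 and 5 in CD, and 4 of 496 Repop D5 cells were above the CD median. In unthinned cells the per-cell level ran from 0 through a median of 296 to 3498 CPM in Repop D5, and from 0 through 1787 to 5859 CPM in CD. The third quartile in Repop D5 was 474 CPM, and 0.403% of Repop D5 cells were above the CD median on this scale. The highest value is that of a single cell and depends on its depth, so no group of high cells is read from it.

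Fcrls, a scavenger receptor of the Fc receptor-like family found in mouse, lies on chromosome 3 from 87250758 to 87263738. It had 491 CPM in Repop D5 (478 to 504) and 1985 CPM in CD (1950 to 2021), 4.04-fold lower in Repop D5. The share in the remaining cells was 23.2% of CD (22.4 to 24.1), from 497 CPM in Repop D5 and 2138 CPM in CD. After thinning, 69.0% of Repop D5 cells and 98.8% of CD cells had a UMI, with a median of 1 UMI in Repop D5 and 6 in CD. Like Gpr34, Fcrls was therefore unseen at this depth in a large minority of Repop D5 cells, although 95.2% of Repop D5 cells and 99.5% of CD cells showed it before thinning.

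Siglech, a sialic acid-binding lectin of mouse microglia and plasmacytoid dendritic cells that pairs with the adaptor DAP12, lies on chromosome 7 from 55768178 to 55778925. It had 589 CPM in Repop D5 (574 to 603) and 1180 CPM in CD (1153 to 1208), 2.01-fold lower in Repop D5. In the remaining cells the levels were 612 CPM in Repop D5 and 1285 CPM in CD, 47.6% of CD (45.8 to 49.5). Siglech stood nearer its CD level than the other receptors, and 51 of 496 thinned Repop D5 cells (10.3%) were above the CD median, against 35.6% of CD cells. A Siglech UMI was found in 81.0% of thinned Repop D5 cells and 97.4% of thinned CD cells. With TMM scaling the ratio of Repop D5 to CD was 0.684 over all retained cells, short of the 1.5-fold limit, and in unscaled UMIs per cell the direction turned over the remaining cells.

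Ltc4s, the enzyme that joins glutathione to leukotriene A4 to make leukotriene C4, lies on chromosome 11 from 50236461 to 50238616. It had 225 CPM in Repop D5 (216 to 234) and 936 CPM in CD (912 to 960), 4.16-fold lower in Repop D5. Its remaining-cell share was 23.0% of CD (21.8 to 24.2), from 234 CPM in Repop D5 and 1016 CPM in CD. Thinned cells with a UMI made up 51.2% of Repop D5 and 91.2% of CD. The annotation has antisense genes over part of Ltc4s (Gm26542), Gpr34 (Cask) and Golm1 (Naa35), and since the use of strand in counting is not stated in the sources used here, reads of the gene and its partner cannot be told apart for these 3.

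The secreted members and Golm1 stood closest to CD. Sparc, which codes for a matricellular protein that binds collagen and calcium, lies on chromosome 11 from 55394500 to 55423183. It had 1616 CPM in Repop D5 (1593 to 1640) and 2810 CPM in CD (2768 to 2852), 1.74-fold lower in Repop D5. Over the remaining cells it had 1691 CPM in Repop D5 and 3076 CPM in CD, 55.0% of CD (53.6 to 56.4). Single unthinned remaining cells ran from 0 through a median of 1625 to 8628 CPM in Repop D5, and from 93.9 through 2993 to 7129 CPM in CD. At 3000 UMIs per cell the 95th percentile was 13 UMIs in Repop D5 and 16 in CD. At that depth 13.5% of Repop D5 cells and 43.5% of CD cells exceeded the CD median. Sparc fell short of the 1.5-fold limit with TMM scaling, at a ratio of Repop D5 to CD of 0.789 over all retained cells, and with totals without mitochondrial and ribosomal protein genes, at 0.693.

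Olfml3, a secreted olfactomedin-like protein, lies on chromosome 3 from 103722222 to 103738001. It had 1810 CPM in Repop D5 (1785 to 1835) and 1653 CPM in CD (1620 to 1685), 110% of CD (107 to 112). In the remaining cells the order turned, with 1873 CPM in Repop D5 and 1959 CPM in CD, 95.6% of CD (92.9 to 98.4). Both differences were under the 1.5-fold limit, and no direction is drawn from them. Single cells gave the same picture of near equality, with a median of 6 UMIs at 3000 UMIs per cell in Repop D5 and in CD, and quartiles of 4 and 8 in both. The CD median was exceeded by 38.3% of Repop D5 cells and 41.3% of CD cells, and 98.8% of Repop D5 cells and 97.6% of CD cells had a UMI. With TMM scaling the share over all retained cells was 150% and past the 1.5-fold limit.

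Golm1, a Golgi membrane protein that can be cut and released from cells, lies on chromosome 13 from 59634626 to 59675811. It had the fewest UMIs of the 9 genes, 178 CPM in Repop D5 (170 to 186) and 241 CPM in CD (229 to 254), 73.8% of CD. The remaining-cell share was 66.7% (61.5 to 72.4), from 182 CPM in Repop D5 and 273 CPM in CD, which lies at the 1.5-fold limit without passing it. Thinned cells with a UMI made up 41.5% of Repop D5 (37.2 to 46.0) and 55.1% of CD (50.2 to 59.9), whereas before thinning, at unequal depth, the shares were 90.3% of Repop D5 and 72.6% of CD cells. That order goes against the CPM and is not read. With TMM scaling Golm1 stood at 101% of CD over all retained cells, so its direction depends on the scaling.

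**Figure D2:**
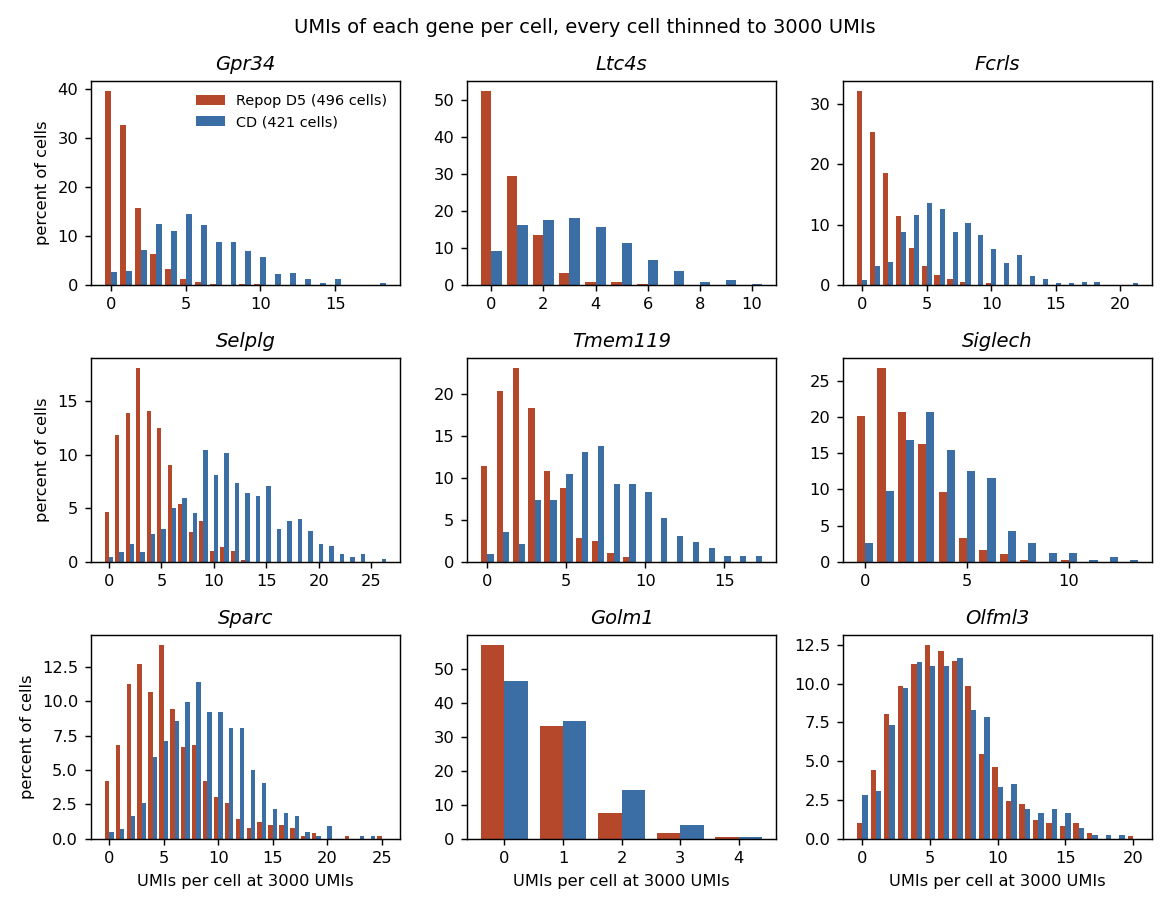
Percent of remaining cells (y axis) by UMIs of each gene per cell (x axis) after thinning to 3000 UMIs, with bars for 496 Repop D5 cells left of those for 421 CD cells. The Repop D5 cells lie below the CD cells for Gpr34, Fcrls, Ltc4s, Tmem119 and Selplg, while the medians for Olfml3 are 6 in each library.

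The shares above are relative to each library's total UMIs, and cells of the libraries differed in depth. Without scaling, the mean over the remaining cells was 17.3 Tmem119 UMIs per cell in Repop D5 and 17.4 in CD, and 26.8 Selplg UMIs in Repop D5 and 27.8 in CD. Gpr34 had 6.77 UMIs per cell in Repop D5 and 13.3 in CD, and Fcrls 10.2 in Repop D5 and 15.8 in CD, so both were lower on this scale too. Siglech turned the other way, with 12.5 UMIs per cell in Repop D5 and 9.47 in CD, as did Sparc, with 34.7 in Repop D5 and 22.7 in CD. Olfml3 had 38.4 UMIs per cell in Repop D5 and 14.4 in CD. Whether more RNA per cell or more efficient capture gave the deeper Repop D5 cells cannot be told apart in these data, so ratios are read as shares of the RNA counted.

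Cell by cell, the 9 genes together stood below CD. At 3000 UMIs the summed UMIs of the 9 genes ran from 3 through a median of 23 to 65 in Repop D5 cells, and from 2 through 54.5 to 100 in CD cells. The central range of CD cells (5th to 95th percentile, 32 to 76 UMIs) held 103 of 496 Repop D5 cells, or 20.8% (17.3 to 24.6), and 91.0% of CD cells. Above the CD median were 5 of 496 Repop D5 cells, or 1.01%. All 9 genes were seen in 7.86% of Repop D5 cells and 48.0% of CD cells, and the median cell showed 7 of them in Repop D5 and 8 in CD. Most Repop D5 cells therefore held UMIs of most of the set, at a lower summed level than the typical CD cell.

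The genes also differed in their spread over cells. Spread beyond counting was taken as the variance minus the mean, divided by the squared mean, over cells at 3000 UMIs, and is 0 where only counting error separates cells. Gpr34 had 0.544 in Repop D5 and 0.119 in CD, Fcrls 0.488 in Repop D5 and 0.0972 in CD, and Sparc 0.334 in Repop D5 and 0.0680 in CD. Siglech had 0.254 in Repop D5 and 0.0681 in CD, and Selplg 0.156 in Repop D5 and 0.0856 in CD. For these 5 genes the Repop D5 value was above the CD value in all 20 random thinnings. All thinnings used the same cells, so their range covers the random draw alone and is no interval for the spread between cells. Repop D5 cells were deeper and lost more of their UMIs in thinning, so the widths of the ranges are not alike in the 2 libraries. For Tmem119 (0.140 in Repop D5 and 0.0901 in CD), Ltc4s (0.324 in Repop D5 and 0.12 in CD), Olfml3 (0.131 in Repop D5 and 0.152 in CD) and Golm1 (0.0551 in Repop D5 and 0.0556 in CD) the ranges over thinnings overlapped between Repop D5 and CD. Taken within clusters, the spread was higher in Repop D5 for 7 of 9 genes, and Gpr34 then had 0.358 in Repop D5 and 0.101 in CD. Relative to its mean, Gpr34 thus varied more among Repop D5 cells than Tmem119, with 0.355 to 0.762 over the thinnings for Gpr34 and 0.0977 to 0.178 for Tmem119. In UMIs per thinned Repop D5 cell the quartiles were 0 and 2 for Gpr34 and 1 and 4 for Tmem119, so the wider spread of Gpr34 is relative only.

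**Figure D3:**
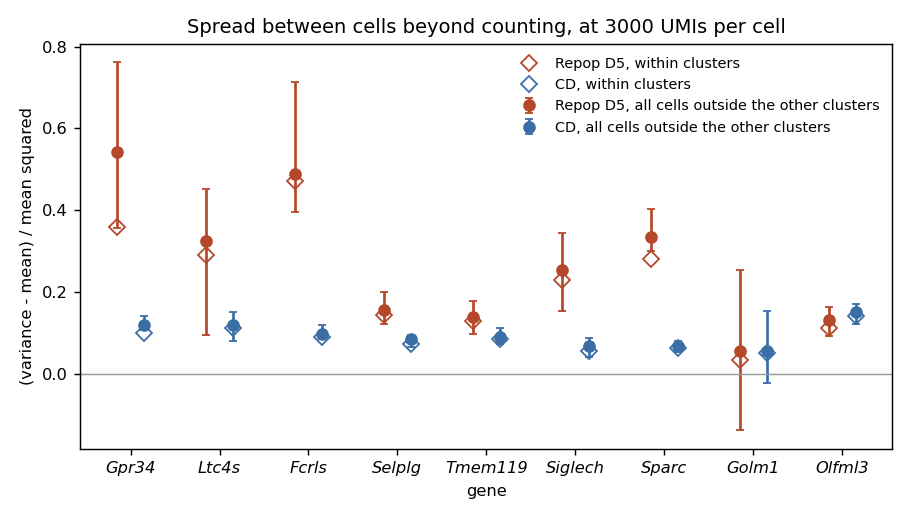
Spread between remaining cells beyond counting error at 3000 UMIs per cell for each gene, Repop D5 left of CD, with bars for the range of 20 thinnings and open diamonds for the spread within clusters. The bars cover the random draw alone, not the choice of cells. Gpr34, Fcrls, Sparc, Siglech and Selplg lie above CD in every thinning, and Olfml3 and Golm1 do not.

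Nearly all remaining cells of the 2 libraries fell into different clusters, so clusters describe variation within a library and are not set against each other as types. Repop D5 cells made up clusters led by DNA replication genes such as Rrm2 (cluster 1, 139 cells), by Fam19a1, Ch25h and Nes (cluster 4, 107), by mitosis genes such as Nusap1 (cluster 5, 92), by Hacd4 and Gdpd3 (cluster 7, 70), by Dusp2 and Tnf (cluster 9, 51) and by interferon-response genes such as Rsad2 (cluster 11, 36). CD cells made up clusters 0 (230 cells), 2 (127) and 8 (69). Exceptions were 3 CD cells in cluster 9, 1 CD cell in cluster 11 and 1 Repop D5 cell in cluster 0. All 9 genes had UMIs in each of these clusters. The single Repop D5 cell in cluster 0 had 0 Golm1 UMIs, and the single CD cell in cluster 11 had 0 Ltc4s and 0 Golm1 UMIs. Cluster 7 had a median of 9812 UMIs per cell, below the Repop D5 median.

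Siglech and Gpr34 varied most among the Repop D5 clusters. Siglech was highest in cluster 7, at 927 CPM (859 to 999), and lowest in the mitotic cluster 5, at 484 CPM (457 to 512), a ratio of 1.92. Gpr34 likewise had 515 CPM (465 to 569) in cluster 7 and 268 CPM (249 to 289) in cluster 5, also 1.92. Sparc followed the same order, with 2234 CPM in cluster 7 and 1455 CPM in cluster 5, and so did Ltc4s, with 303 CPM and 211 CPM. Tmem119 and Selplg were nearly flat, each with 1.24 between their highest and lowest cluster. Tmem119 was highest in cluster 4, at 902 CPM, and lowest in cluster 7, at 728 CPM, where Siglech, Gpr34, Sparc and Ltc4s were highest. Golm1 was likewise highest in cluster 4, at 204 CPM, and lowest in cluster 7, at 144 CPM. Fcrls and Olfml3 were also highest in cluster 4, at 619 CPM and 2211 CPM. The 2 libraries were set side by side for clusters with at least 20 cells of a library, scaled by total UMIs. Even in their highest Repop D5 cluster, Gpr34, Fcrls, Ltc4s, Tmem119, Selplg, Siglech and Sparc then stayed below their lowest CD cluster, which for Gpr34 was 1609 CPM. For Siglech that CD cluster had 1069 CPM (975 to 1170), so its counting interval overlapped that of Repop D5 cluster 7. TMM scaling shifted log2 ratios over the remaining cells by 0.473, and this order of clusters was not examined with it. Whether cell cycle or depth had a part in these differences was not tested.

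**Figure D4:**
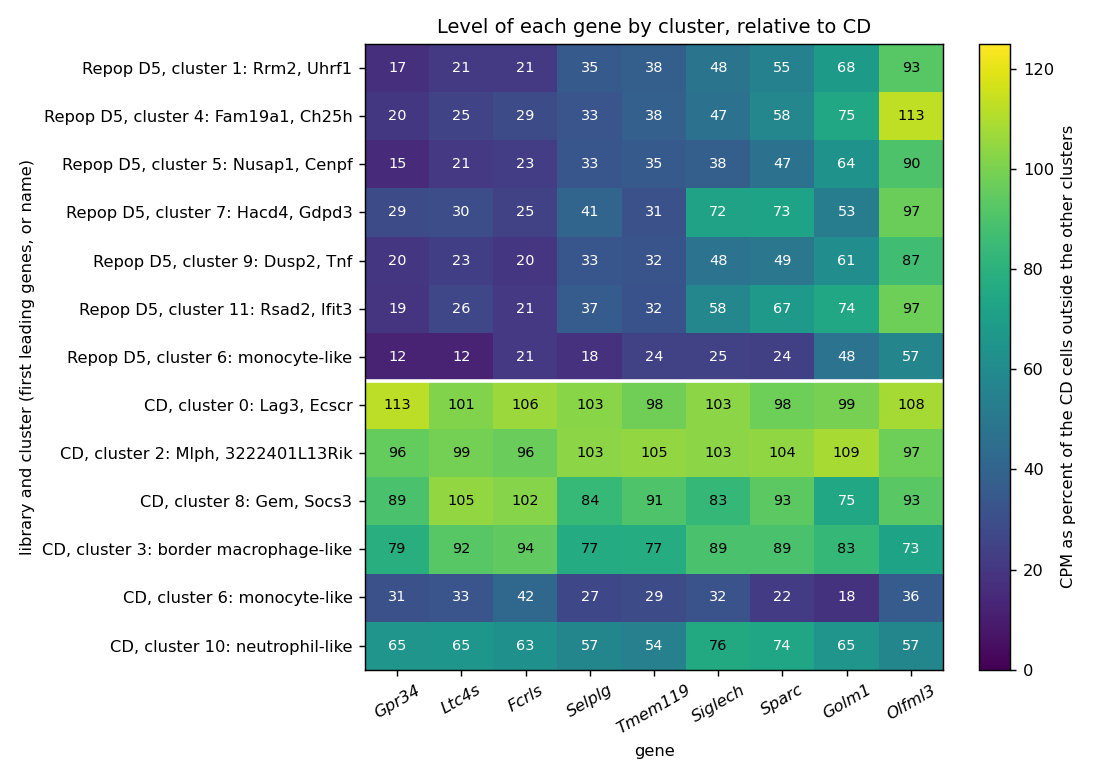
Level of each gene (columns) in clusters with at least 20 cells of a library (rows, Repop D5 above CD), as a percentage of its CPM in the remaining CD cells, on a colour scale. Gpr34 reaches 28.6% in Repop D5 cluster 7 and lies at 14.9% in cluster 5, while Olfml3 lies between 86.7% and 113% in the 6 Repop D5 clusters of remaining cells.

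Transcripts of the 9 genes were also counted in cells of the other clusters. In CD border macrophage-like cells each stood at 72.6% to 94.4% of its level in the remaining CD cells, and 10 further microglia markers stood at 72.3% to 126%. In neutrophil-like cells the 9 genes stood at 30.04% to 55.9% of the library's remaining cells in Repop D5 (7 cells) and at 54.3% to 75.9% in CD (42 cells). In monocyte-like cells the range was 43.2% to 90.01% in Repop D5 and 18.1% to 42.2% in CD. Apart from Selplg, which neutrophils carry too, these genes are not known as neutrophil genes. After thinning, a UMI was found in 1 of 7 (Gpr34, Fcrls, Ltc4s and Golm1) to 6 of 7 (Olfml3) Repop D5 neutrophil-like cells, whose median depth was 5416 UMIs. The CD share ran from 29.3% (Golm1) to 92.7% (Selplg) of 41 neutrophil-like cells, whose median depth was 6398 UMIs. For all 9 genes the share in the remaining cells was higher than in the neutrophil-like cells of the same library. With 7 cells the Repop D5 intervals are wide, 0.361% to 57.9% for Gpr34, so 1 UMI in a single cell is not read as expression by that cell. In CD border macrophage-like cells the thinned share ran from 45.0% (Golm1) to 99.1% (Fcrls). The remaining CD cells had 55.1% (Golm1) to 99.5% (Sparc and Selplg), so the contrast was smaller there. For monocyte-like cells the share ran from 22.9% (Ltc4s) to 89.6% (Olfml3) in Repop D5 and from 11.5% (Golm1) to 88.5% (Selplg) in CD. The part of free RNA and of doublets in these values was not tested.

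Within a library the 9 genes varied together only weakly. Over the 36 gene pairs at 3000 UMIs, Spearman's rho across cells ran from 0.01 to 0.35 with a median of 0.12 in Repop D5, and from -0.03 to 0.35 with a median of 0.11 in CD. Siglech and Sparc had the highest rho in Repop D5 (0.35), and Tmem119 and Selplg in CD (0.35). Counts per cell were low, and no relation is read from them.

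Over 13 profiles of clusters with at least 20 cells, 7 from Repop D5 and 6 from CD, the gene most like each member among 3229 genes was found by Pearson's r of log2(CPM + 10). Ltc4s was most like P2ry12, the ADP receptor of microglial processes (r = 0.995), Gpr34 most like Gp9 (0.993), Selplg like Jam2 (0.991), Fcrls like Taz (0.985), Tmem119 like Prkca (0.984), Siglech like Ctsf (0.976), Sparc like Cd37 (0.962), Golm1 like Sypl (0.961) and Olfml3 like Bin1 (0.940). Bin1 was, like Olfml3, near its CD level, at 613 CPM in Repop D5 and 681 CPM in CD. The profiles share libraries and depth, so these values mostly describe the gap between the libraries.

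Other homeostatic microglia genes had a median further below CD than that of the 9 genes. Of 34 measured, 31 were lower in Repop D5 and 0 were higher, beside 42.1% lower and 16.8% higher among all genes. Their log2 ratios had a median of -1.71, beside -1.30 for the 9 genes. In the remaining cells 32 were lower, beside 40.5% of all genes, and the medians lay closer, at -1.68 and -1.48. Over all retained cells P2ry12 had 495 CPM in Repop D5 and 2988 CPM in CD, 6.04-fold lower in Repop D5. Cx3cr1, the fractalkine receptor, had 1428 CPM in Repop D5 and 5052 CPM in CD. Lag3 had 5.53 CPM in Repop D5 and 314 CPM in CD, and the lens crystallin gene Crybb1 had 11.6 CPM in Repop D5 and 603 CPM in CD. Itgb5, an integrin subunit, had 655 CPM in Repop D5 and 815 CPM in CD and was not called.

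Genes that work with the members are given over all retained cells unless stated. In the leukotriene pathway 3 of 9 measured genes were lower and 2 higher in Repop D5, and over the remaining cells 2 of 8 were lower and 2 higher. Beside the 42.1% lower and 16.8% higher among all genes, these small counts say nothing particular of the pathway. The 2 called higher act before Ltc4s: Alox5, which makes leukotriene A4, had 43.3 CPM in Repop D5 and 16.8 CPM in CD, 2.57-fold higher, and Pla2g4a, which frees arachidonic acid, had 82.2 CPM in Repop D5 and 41.8 CPM in CD, 1.97-fold higher. Alox5ap, the partner of Alox5, had 637 CPM in Repop D5 and 466 CPM in CD and was not called. Ggt5, which turns leukotriene C4 into D4, had 8.70 CPM in Repop D5 and 53.7 CPM in CD, and the receptor Cysltr1 had 41.3 CPM in Repop D5 and 89.0 CPM in CD, both lower.

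Around Siglech, 4 of 8 genes of the Siglec and DAP12 list were lower and 1 higher in Repop D5, again near the shares of all genes. Over the remaining cells 3 were lower and 0 higher, since Siglecf had a ratio of Repop D5 to CD of 1.67 over all retained cells and 1.32 over the remaining cells. The adaptor Tyrobp had 3055 CPM in Repop D5 and 3675 CPM in CD and was not called, while the kinase Syk had 35.5 CPM in Repop D5 and 85.4 CPM in CD, 2.40-fold lower. Among selectins and the enzymes that build their ligand on PSGL-1, 8 of 10 were lower and 1 higher, and over the remaining cells 7 of 9 were lower and 1 higher. Among all genes 42.1% were lower and 16.8% higher, and over the remaining cells 40.5% were lower and 17.6% higher. The sialyltransferase St3gal6 had 104 CPM in Repop D5 and 353 CPM in CD, and the tyrosine sulfotransferase Tpst2 had 98.6 CPM in Repop D5 and 255 CPM in CD. Its relative Tpst1 had 20.0 CPM in Repop D5 and 10.2 CPM in CD and was the 1 gene called higher.

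For Sparc, 3 of 4 measured matrix partners and relatives were higher in Repop D5 over both sets of cells. Among all genes 16.8% were higher over all retained cells and 17.6% over the remaining cells. With 4 genes measured, no result about partners of Sparc is read from this count. Fn1, fibronectin, had 106 CPM in Repop D5 and 10.1 CPM in CD, 10.5-fold higher, and in the remaining cells 105 CPM in Repop D5 and 2.53 CPM in CD. Tgfbi had 152 CPM in Repop D5 and 89.2 CPM in CD. Stab1, a scavenger receptor for SPARC, had 138 CPM in Repop D5 and 385 CPM in CD, 2.79-fold lower. Of 3 measured genes listed as lysophosphatidylserine receptors, enzymes and their relatives, P2ry14, a receptor for UDP-sugars, had 12.8 CPM in Repop D5 and 0.826 CPM in CD, which rests on 5 UMIs in CD, and Abhd12, a lipase for this lipid, had 371 CPM in Repop D5 and 721 CPM in CD. Fcrl1, the other Fc receptor-like gene measured, had 1.81 CPM in Repop D5 and 38.1 CPM in CD, 21.1-fold lower. Of 9 Golgi genes listed for Golm1, 6 were lower and 0 higher, and over the remaining cells 5 were lower and 0 higher. The share of all genes that were lower was 42.1% over all retained cells and 40.5% over the remaining cells. The protease Furin was lower in both, with 25.1 CPM in Repop D5 and 46.4 CPM in CD over all retained cells. Of 3 genes on the olfactomedin and BMP list, 2 were lower and 0 higher, too few to read beside the 42.1% lower among all genes.

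**Figure D5:**
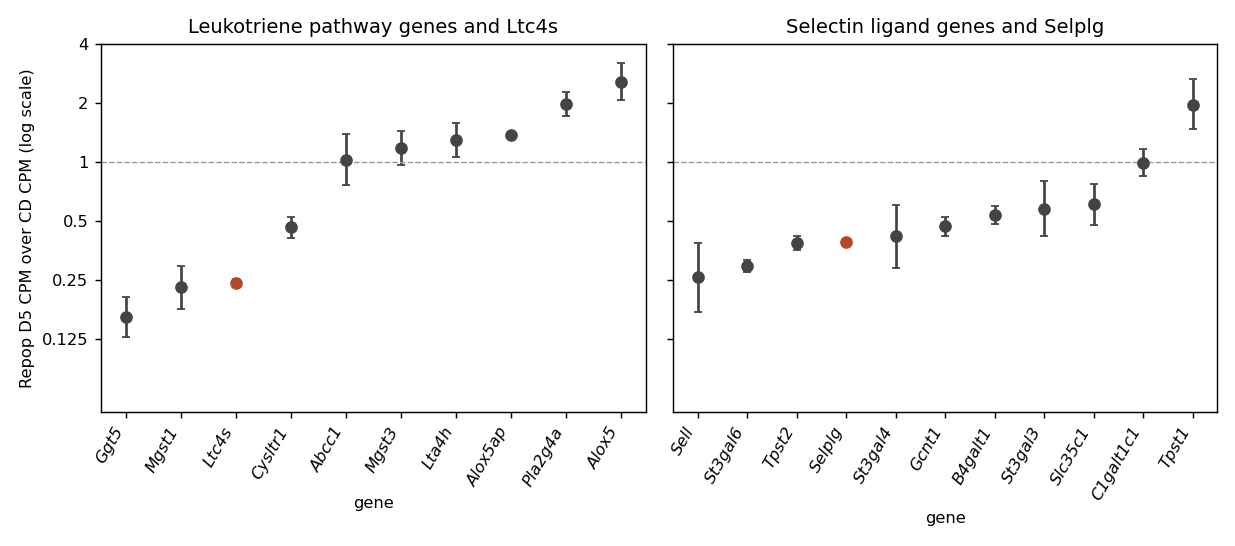
Ratio of Repop D5 CPM to CD CPM on a log axis for the measured leukotriene pathway genes with Ltc4s and the selectin ligand genes with Selplg (members in red), over all retained cells with 95% counting intervals. Alox5 at 2.57 and Pla2g4a at 1.97 lie above 1 and Ltc4s lies below, and in the other panel Tpst1 at 1.96 stands above 1.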

How the data were processed

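Cells sorted as CD11b+/CD45+ were profiled in 2 libraries, 1 for Repop D5 and 1 for CD, whose groups come from the treatment label of each sample. The authors deposited matrices of raw UMI counts per gene and barcode, mapped to mm10 with Cell Ranger 2.1.0 per the submitters' processing notes. How cells were called, the annotation release, the 10x chemistry and the use of strand are not given in the sources used here. The per-library matrices were used, and a pooled matrix, which holds 96.8% of the Repop D5 UMIs and the CD counts unchanged, served as an alternative. The 9 genes and all lists were chosen with earlier results of these data known.

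Cells with at least 500 genes and under 10% mt- UMIs were retained, which left out 32 Repop D5 barcodes. Retained depth was 11037921 UMIs in Repop D5 and 6055886 in CD, so 3 counts correspond to 0.272 CPM in Repop D5 and 0.495 CPM in CD. The 2 barcode lists share 1 barcode. Scrublet called 12 doublets in Repop D5 and 3 in CD, which were kept in the main values. Clustering used scanpy 1.11.5 and leidenalg 0.10.2 in Python 3.11.15 (2000 variable genes without the 9 members, 30 principal components, 15 neighbours, resolution 1) with no correction between libraries. A cluster was named after another class where 3 or more of its 10 leading genes were fixed markers of that class. Clusters 2 and 4 each had 1 marker of another class and 0 microglia markers among the leading genes, so the microglia-like clusters are not compared as a class and are called remaining cells.

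UMIs were summed per library and scaled to CPM. Ratios carry exact conditional binomial 95% intervals, levels exact Poisson intervals and shares Clopper-Pearson intervals. Genes at 10 CPM or more in 1 library entered the background. Thinning used 20 draws of 3000 UMIs per cell, and shares, percentiles, summed UMIs and spread are medians over them. Lists are described by counts and by medians of log2 ratios with a pseudocount of 1 CPM. Genes named from a list are taken from its 2 highest and 2 lowest ratios and its 2 most abundant genes, and others were chosen after their values were seen. TMM factors came from edgeR 4.0.16, used for scaling alone. The scripts were tested on simulated data. Gene positions are from GENCODE M21 on GRCm38, the assembly of mm10.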

Additional observations from a re-analysis of the deposited data

How the results depend on the processing

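Over all retained cells the summed level of the 9 genes in Repop D5 over CD was 0.468, and it was 0.448 with at least 1000 genes and under 5% mt- UMIs per cell, 0.642 with TMM scaling, 0.563 with totals without mt- and ribosomal protein genes, 0.479 with equal weight per cell, 0.476 with cells thinned to 3000 UMIs, 0.475 without the 5% of cells with most UMIs and 0.428 over the remaining cells. No filter, the pooled matrix and leaving out called doublets moved it by less than its counting interval. Over the remaining cells the ratio was 0.428, and it was 0.421 and 0.443 with Leiden at 0.5 and at 2, 0.419 with 15 principal components, 0.594 with TMM, 0.516 without mt- and ribosomal protein genes and 0.448 with equal weight. Mean UMIs per cell with no scaling gave 0.939 over all retained cells and 1.19 over the remaining cells. It was an alternative chosen after seeing the data, like the scaling and weighting ones for the remaining cells. On this scale 3 genes were lower and 1 higher over all retained cells, and 3 lower and 3 higher over the remaining cells. The share of all genes called on this scale is not given, so these counts are not read as a result about the 9 genes. Siglech then stood at 1.00 and Sparc at 1.15 over all retained cells, and at 1.33 and 1.53 over the remaining cells, so their direction turned. TMM also gave 1 gene higher, and it shifted every log2 ratio by 0.456, the totals without mt- and ribosomal protein genes by 0.268. The median log2 ratio of the other homeostatic genes was -1.71, and it was -1.57 with a pseudocount of 10 CPM, -1.25 with TMM and -1.44 without mt- and ribosomal protein genes. With no minimum level the median of the SPARC list was -0.081 in place of 1.48. The cause of these changes was not tested, apart from the scale shifts, which follow from the totals used. Gpr34, Ltc4s, Fcrls, Selplg, Tmem119, Siglech and Sparc stayed below CD in all 10 scaled alternatives to the main values over all retained cells. Among these alternatives were other cell filters and the remaining cells. With TMM over all retained cells Siglech (0.684) and Sparc (0.789) missed the 1.5-fold limit, which left 5 genes lower. With totals without mt- and ribosomal protein genes Sparc (0.693) missed it, which left 6. No paired analysis was possible because each group is 1 library. Depth limits single-cell values of Golm1 above all, with a median of 0 UMIs in Repop D5 and 1 in CD per thinned cell.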

Other observations

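In Repop D5, 32 barcodes failed the cell filter. Together they had 262413 UMIs, with 861 CPM of Tmem119, 1978 CPM of Olfml3 and 286 CPM of Gpr34, beside 822, 1810 and 321 CPM in the retained Repop D5 cells.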
